A study of Caenorhabditis elegans with 2 samples.

Results

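Of the 1894 nuclear peaks that LIR-3 carried in L1 larvae of Caenorhabditis elegans, 478 lay between genes and away from gene starts (25.2%, exact Clopper-Pearson 95% interval 23.3 to 27.3%). Within this set, which had already passed the authors' threshold for reproducibility, they were chosen by position alone. The summit, the base with the strongest signal in a peak, had to lie outside the body of every protein-coding gene and more than 500 bp from the 5' end of any protein-coding, tRNA, snoRNA or snRNA gene. Of all 1894 nuclear peaks, 1122 (59.2%) had their summit within 500 bp of such a 5' end, and 294 (15.5%) were inside protein-coding genes and farther from 5' ends. Scores were not used to choose among the 1894 peaks, whose lowest score was 89.9. The intervals given for shares treat peaks as independent and cover counting error only.

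ChIP-seq, in which DNA bound by a protein is precipitated and sequenced, was done on 2 biological replicates of a single group, with no control group among the samples. The animals were hermaphrodite larvae of strain OP312, which has the mutation unc-119(ed3) on chromosome III and the transgene wgIs312. The transgene expresses LIR-3 with GFP and FLAG at its C-terminus. Cultures were synchronized by bleaching and by starving larvae to arrest them at L1, and larvae were collected 6 h after synchronization. DNA bound to the tagged protein was precipitated from sonicated chromatin of whole animals with an antibody against GFP, per the experiment's description. The antibody field of the labels names lir-3 instead. The tagged protein came from an inserted transgene of 1 strain, and the DNA came from all cells of the larva, so a weak peak in many cells and a strong peak in few cells cannot be told apart.

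LIR-3 belongs to a family of zinc finger proteins named after LIN-26, which is needed for epithelial cells to keep their fate in this worm. In worms most known regulatory elements lie close to gene starts, because the spaces between genes are short, but enhancers and other elements also lie farther away. Sites of a different kind lie on the X chromosome of hermaphrodites. There the dosage compensation complex, which lowers transcription from both X chromosomes, is loaded at recruitment sites that hold a short motif enriched on X, and spreads from them. Convergent gene pairs, which point towards each other, enclose a space with 3' ends on both sides and no promoter of either gene.

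The authors' set of peaks that passed a threshold on the irreproducible discovery rate (the IDR set) held 1910 peaks in all, of which these 1894 were nuclear. Read depth is unknown, because the files hold peaks and no read counts. The score is the authors' own signal value, with no unit given, and was used to rank peaks and describe them within a list. Each replicate also has a list of 30000 regions from before the threshold, and such a region need not be a peak. Coordinates are on ce11, and sequences were read from the RefSeq genome of the same build (WBcel235).

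The sequences at 6 of the 7 strongest of these peaks are shown because short sequence elements stood out among strong peaks. Each is the plus strand from 100 bp before to 100 bp after the summit. Capitals mark the letters of 5 elements described further on (GGAGTACAC, GCGCAGGG, AGACGCAG, CACGTG and GAGAGAGA, on either strand), and a window without capitals holds none of them.
chrV:14055125-14055325 (+): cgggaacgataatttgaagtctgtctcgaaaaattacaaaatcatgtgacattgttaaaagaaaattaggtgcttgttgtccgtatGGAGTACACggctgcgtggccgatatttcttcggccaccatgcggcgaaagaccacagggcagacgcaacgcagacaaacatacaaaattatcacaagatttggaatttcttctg
chrII:8028372-8028572 (+): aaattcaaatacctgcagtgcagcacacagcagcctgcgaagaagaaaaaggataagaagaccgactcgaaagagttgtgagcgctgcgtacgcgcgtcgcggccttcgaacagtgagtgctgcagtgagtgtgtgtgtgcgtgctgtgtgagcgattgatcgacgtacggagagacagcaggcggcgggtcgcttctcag
chrII:6061593-6061793 (+): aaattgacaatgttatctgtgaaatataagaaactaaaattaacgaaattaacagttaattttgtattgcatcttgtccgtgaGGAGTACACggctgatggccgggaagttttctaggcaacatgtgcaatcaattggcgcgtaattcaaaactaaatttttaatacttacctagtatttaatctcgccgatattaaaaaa
chrIII:4899814-4900014 (+): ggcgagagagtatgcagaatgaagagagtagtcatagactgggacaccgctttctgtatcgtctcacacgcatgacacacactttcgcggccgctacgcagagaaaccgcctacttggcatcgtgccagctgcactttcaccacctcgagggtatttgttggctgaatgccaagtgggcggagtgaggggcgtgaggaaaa
chrIII:8043876-8044076 (+): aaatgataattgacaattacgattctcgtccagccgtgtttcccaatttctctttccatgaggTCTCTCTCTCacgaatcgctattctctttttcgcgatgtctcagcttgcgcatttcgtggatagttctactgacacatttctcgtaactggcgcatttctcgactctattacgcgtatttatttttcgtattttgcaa
chrX:13700755-13700955 (+): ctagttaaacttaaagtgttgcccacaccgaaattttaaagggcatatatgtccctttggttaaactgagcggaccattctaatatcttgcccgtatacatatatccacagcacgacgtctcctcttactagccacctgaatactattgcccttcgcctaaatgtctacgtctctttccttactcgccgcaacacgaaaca

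The strongest window, on chromosome V, and the one at 6061593 on chromosome II share the 9 letters GGAGTACAC, which came up as a frequent 9-mer when the 60 strongest members were set beside the remaining ones. These letters were found in 6 of the 60 strongest members and 5 of the other 418 (1.20%). The 10 sites shown, at 10 of these 11 peaks, are given because most of them shared bases beyond the 9 letters too. Each is oriented so that the 9 letters, in capitals, read 5' to 3', with 12 bases on either side.
chrV:14055199-14055231 (+): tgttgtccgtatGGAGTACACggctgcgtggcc
chrII:6061664-6061696 (+): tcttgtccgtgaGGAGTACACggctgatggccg
chrIII:5722057-5722089 (-): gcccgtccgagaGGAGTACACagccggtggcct
chrIV:2219645-2219677 (+): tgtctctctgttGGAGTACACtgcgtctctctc
chrIII:5190387-5190419 (-): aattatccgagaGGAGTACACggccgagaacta
chrIV:7816562-7816594 (+): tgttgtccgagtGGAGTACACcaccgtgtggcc
chrX:11689272-11689304 (-): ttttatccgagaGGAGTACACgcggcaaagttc
chrV:10031931-10031963 (+): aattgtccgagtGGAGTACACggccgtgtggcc
chrV:10003510-10003542 (-): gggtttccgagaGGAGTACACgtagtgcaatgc
chrV:4693138-4693170 (+): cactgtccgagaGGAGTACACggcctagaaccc

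A different element stood out on X. The letters GCGCAGGG are part of the known motif of dosage compensation recruitment sites, and were searched for after 9-mers that overlap them, such as CCCTGCGCG on the opposite strand, had been seen in the strongest members (6 of 60, and 1 of the other 418, 0.239%). All 13 sites near a member summit are shown because each of them lies on X. They are oriented so that the 8 letters, in capitals, read 5' to 3', with 12 bases on either side.
chrX:11094113-11094144 (-): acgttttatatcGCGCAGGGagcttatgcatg
chrX:11094214-11094245 (-): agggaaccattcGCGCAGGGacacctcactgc
chrX:4209254-4209285 (-): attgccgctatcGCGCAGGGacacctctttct
chrX:16682160-16682191 (-): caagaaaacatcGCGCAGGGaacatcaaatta
chrX:14525888-14525919 (-): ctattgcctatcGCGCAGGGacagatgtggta
chrX:806662-806693 (+): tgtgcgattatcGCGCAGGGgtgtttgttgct
chrX:806738-806769 (+): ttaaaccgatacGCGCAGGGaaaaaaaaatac
chrX:1345044-1345075 (+): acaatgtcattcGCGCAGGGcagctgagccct
chrX:13514546-13514577 (+): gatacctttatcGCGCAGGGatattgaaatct
chrX:2364887-2364918 (-): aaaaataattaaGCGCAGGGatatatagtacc
chrX:4395603-4395634 (+): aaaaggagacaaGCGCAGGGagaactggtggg
chrX:17181353-17181384 (-): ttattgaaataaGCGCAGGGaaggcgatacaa
chrX:4208727-4208758 (+): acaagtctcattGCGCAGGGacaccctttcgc

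Intergenic peaks ranged from among the strongest of the genome to the threshold of the set. The pooled score had a median of 140 over the 478 peaks, with 25% of them below 107 and 25% above 232, and a maximum of 2369. The median was 134 for peaks inside genes, 174 for peaks near 5' ends and 159 over all 1894. Of the 478, 207 were among the 947 strongest nuclear peaks (43.3%, exact 95% interval 38.8 to 47.9%), beside 40.1% of those inside genes and 55.4% of those near 5' ends. When each replicate's own 1894 strongest regions were used, the share among the 947 strongest was 41.4% in replicate 1 and 43.3% in replicate 2. At the top of the ranking 17 of the 100 strongest nuclear peaks were intergenic, 4 were inside genes and 79 were near 5' ends.

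**Figure D1:**
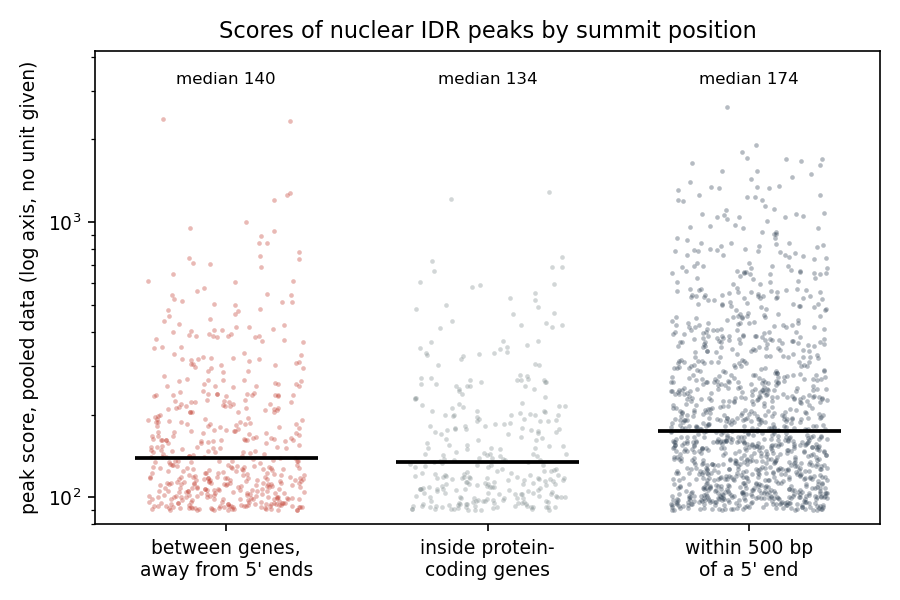
Pooled score of each of the 1894 nuclear IDR peaks on a log axis, by position of the summit; each point is a peak, points are spread sideways only for visibility, and black lines are medians. Medians are 140 for the 478 intergenic peaks away from 5' ends, 134 inside protein-coding genes and 174 within 500 bp of a 5' end, and both intergenic peaks above 2000 stand apart from the remaining intergenic ones.

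Intergenic regions passed the threshold slightly less often than pooled regions in general. Of the 9186 pooled regions that met the location rule, 478 were in the IDR set (5.20%, exact 95% interval 4.76 to 5.68%), beside 6.32% of all 29984 nuclear pooled regions. The share was 2.24% for regions inside genes and 14.6% for regions near 5' ends. Taking the 1894 strongest regions of each replicate as called, the share for regions that met the rule was 5.25% in replicate 1 and 5.39% in replicate 2, with 6.32% over all nuclear regions of either list. Positions that meet the rule make up 29.5 Mb, or 29.5% of the nuclear genome. They held 16.2 peaks per Mb, beside 20 per Mb in the rest of the genome.

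Intergenic peaks were mostly covered in both replicate lists, which the IDR selection for agreement favours, and their order of strength was looser than that of peaks near 5' ends and like that of peaks inside genes. A region of replicate 1 covered the summit of 459 peaks (96.0%), and a region of replicate 2 that of 467 (97.7%). In 288 (60.3%, exact 95% interval 55.7 to 64.7%) the matching regions ranked among the 1894 strongest of both lists, beside 59.5% of peaks inside genes, 68.6% of all nuclear peaks and 74.6% of those near 5' ends. For the 449 intergenic peaks covered in both, the scores had a Spearman's rho of 0.70, as a description across peaks that share their libraries, beside 0.71 over 268 peaks inside genes and 0.80 over 1090 near 5' ends. The median score was 66.4 in replicate 1 and 81.6 in replicate 2, and the median ratio of replicate 1 to replicate 2 was 0.838, near the 0.867 over all matched nuclear peaks.

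**Figure D2:**
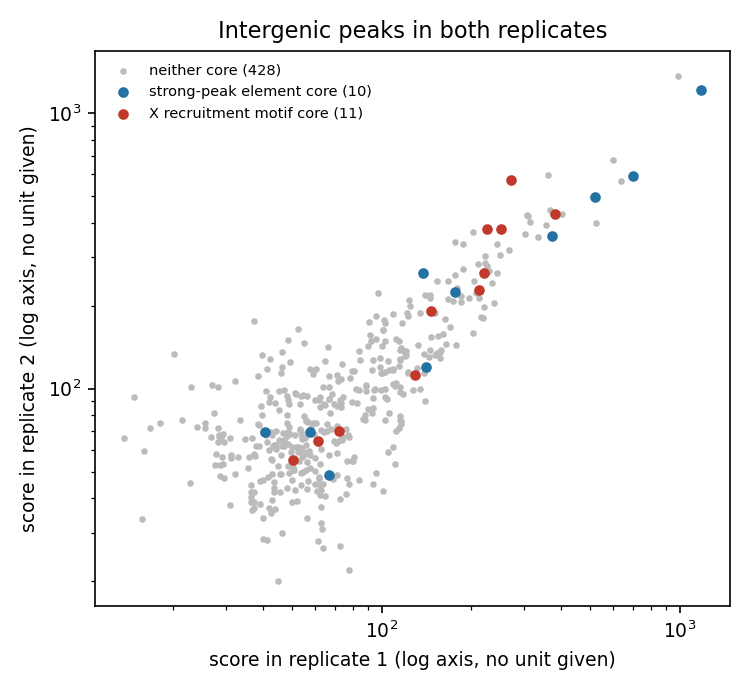
Score in replicate 1 (x axis) and in replicate 2 (y axis), both log axes with no unit given, for the 449 intergenic peaks matched in both lists; each point is a peak, red points have the X recruitment motif core and blue points the strong-peak element core within 100 bp of the summit. Scores rise together (rho 0.70), and 8 of the 11 red points have a score above 100 in both replicates.

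The strongest intergenic peak lay downstream of F58D12.1 and upstream of F58D12.3, which RefSeq annotates as a SWIB domain protein. Its summit at position 14055225 of chromosome V (peak 14055092 to 14055372) was 562 bp from F58D12.1 and 2615 bp from F58D12.3, both on the plus strand. Its pooled score of 2369 went with 1179 in replicate 1, which is rank 2 there, and with 1212, rank 3, in replicate 2, so both replicates placed it near the top of the genome. It is the window with GGAGTACAC shown above for chromosome V, and no gene of any biotype starts within 500 bp of it.

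The second strongest peak lay in the 1189 bp between swsn-7, a subunit of the SWI/SNF chromatin remodelling complex, and nrf-6. Its summit at position 8028472 of chromosome II had a pooled score of 2328, with 985 in replicate 1, where it ranked 4, and 1366 in replicate 2, where it ranked 1. It was inside the non-coding RNA gene C08B11.13, whose 5' end was 227 bp away, and its window had a G+C content of 55.7%, against a median of 42.3% for all intergenic peaks. None of the 5 elements was in that window.

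Next in score was a peak just downstream of H12I13.1, annotated by RefSeq as a ubiquitin carboxyl-terminal hydrolase. The summit at position 6061693 of chromosome II lay between R12C12.7 and H12I13.1, 284 bp from the 3' end of the latter and 5708 bp from R12C12.7, and a pseudogene (WBGene00020028) starts 173 bp away. The pooled score was 1274, with 697 in replicate 1 and 590 in replicate 2. The window holds GGAGTACAC.

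A pair of strong peaks on chromosome III lay in divergent spaces, between genes that point away from each other. The summit at 4899914 scored 1252 (598 in replicate 1 and 677 in replicate 2) and lay between nhl-2, whose product is a TRIM-NHL protein that acts with the microRNA machinery in this worm, and tag-340. The non-coding RNA gene F26F4.14 starts 36 bp from it. The summit at 8043976 scored 1209 (635 and 568) and was 511 bp from the 5' end of K12H4.5, so it met the distance limit narrowly.

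Below these, scores of the 20 strongest intergenic peaks ran down to 612, and 8 of the 20 were on X. The peak with its summit at position 13700855 of X (952 pooled, 362 in replicate 1, 597 in replicate 2) lay in 11105 bp between adm-2, a disintegrin and metalloproteinase gene, and K02D3.1, 5054 bp from the former and 6052 bp from the latter. Another at 11094207 (841 pooled, 271 and 574) lay between the convergent genes W04G3.11 and W02H3.3. At 4209259 (781 pooled, 383 and 432) the summit was 1312 bp from the 3' end of hpk-1, which encodes a homeodomain-interacting protein kinase, and 1774 bp from the 5' end of F20B6.9. The remaining X peaks among the 20 had their summits at 9465871 upstream of gap-2, a Ras GTPase-activating protein gene (742), at 12363184 between F19H6.6 and F19H6.5 (706), at 11937550 between dot-1.4 and F55G7.5 (686), at 2536631 upstream of tbc-12 (647) and at 16682108 between F22H10.2 and F22H10.11 (612). Rank in replicate 2 was above rank in replicate 1 for 7 of these 8.

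The autosomal peaks among the 20 that remain to be named flanked genes of many kinds. Next to the summit at 3987302 of chromosome I (score 1006, and 521 and 498 in the replicates) was aars-2, an alanyl-tRNA synthetase gene, with cpn-3 on the other side. The palmitoyltransferase gene dhhc-4 starts 514 bp from the summit at 9868306 of chromosome III (926, and 526 and 401 in the replicates). Further ones lay by eel-1, a HECT ubiquitin ligase gene, at 3050662 of chromosome IV (894), between Y53F4B.20 and Y53F4B.21 at 15089614 of chromosome II (840), by taf-12, a subunit of TFIID, at 11870176 of chromosome III (755), and 799 bp upstream of wrm-1, which encodes a beta-catenin, at 5722051 of chromosome III (734). The last was at 2639852 of chromosome I between F40E3.3 and mage-1 (709). Reads can be placed less surely at 2 of the 20: only 25.1% of the 31-mers in the window at 3050662 and 39.2% of those at 2639852 occur once in the genome, while the window at 3987302 had 97.1% and the other 17 had 100%.

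Distances from intergenic peaks to genes varied widely, and were somewhat shorter than those of weaker regions, the 8708 pooled regions that met the rule and were not in the IDR set. The rule itself selects long spaces, so only the comparison with weaker regions bears on the peaks. The nearest 5' end used by the rule was a median of 1644 bp away, from 504 to 12738 bp, with 133 peaks at 501 to 1000 bp, 142 at 1001 to 2000 bp, 154 at 2001 to 5000 bp and 49 farther out. The space between the protein-coding genes on either side had a median length of 5266 bp, beside 6379 bp for weaker regions, whose nearest such 5' end was a median of 2079 bp away. In 385 (80.5%, exact 95% interval 76.7 to 84.0%) the summit was upstream of the gene whose 5' end was nearest, beside 74.9% of weaker regions (73.9 to 75.8%). In 200 (41.8%) a 3' end was nearer than any 5' end, beside 42.8% of weaker regions. Distance made little difference to strength: 46.6% of the peaks at 501 to 1000 bp, 39.4% of those at 1001 to 2000 bp and 43.8% of those farther out were among the 947 strongest, with intervals that overlap.

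The limit of 500 bp cut through a continuous range. Just inside it were the peaks at 504 bp from sur-5 (summit 7306074 of X, score 91.2) and at 504 bp from copd-1 (summit 6625476 of chromosome III, 173). Just outside it were those at 497 bp from T09F3.2 (91.2) and at 497 bp from the ribosomal protein gene rps-24 (657). The 57 nuclear peaks at 401 to 500 bp had a median score of 152 and the 35 at 501 to 600 bp one of 127. With a limit of 250 bp, 730 peaks would have met the rule.

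Many intergenic peaks had other LIR-3 peaks nearby. Another nuclear IDR summit lay within 2 kb of 133 (27.8%, exact 95% interval 23.9 to 32.1%), beside 13.8% of peaks near 5' ends and 34.7% of those inside genes. The 478 peaks fell in 406 spaces, of which 54 held more than 1 peak and together 126, with up to 6 in a single space. By 5' end they were nearest to 418 genes. The gene mdl-1, which encodes a Mad-like partner in the Myc and Mondo network of this worm, was nearest for 4 peaks, the strongest at 422. Of the 478, 49 had a nearest gene that also carried a LIR-3 peak within 500 bp of its 5' end (10.3%, exact 95% interval 7.68 to 13.3%). This share was 6.09% over all 19973 protein-coding genes and 4.04% (3.64 to 4.48%) over the 8708 weaker regions.

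In convergent spaces intergenic peaks were far denser on X than on autosomes, and in other spaces they were not. Convergent spaces held 43 of the 478 peaks (9.00%), tandem spaces, whose genes point the same way, 261 (54.6%), and divergent spaces 174 (36.4%). Of the bases that met the rule, 13.7%, 54.1% and 31.9% were in these 3 kinds. On X, convergent spaces held 23 peaks in 0.701 Mb, or 32.8 per Mb, and on autosomes 20 peaks in 3.36 Mb, or 5.95 per Mb. The strongest regions of replicate 1 numbered 21 on X and 18 on autosomes in such spaces, and those of replicate 2 numbered 22 and 23, so the gap was there in each replicate. Tandem spaces had 16.6 per Mb on X and 16.2 on autosomes, and divergent spaces 15.6 and 19.4. The difference was not tested, and the split by orientation and chromosome was made after counts of these data had been seen.

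The same contrast held for the share of regions that passed the threshold, which sets aside how many regions each kind of space has. In convergent spaces 11.6% of pooled regions on X were in the IDR set and 2.58% of those on autosomes, while weaker regions were about as dense in both (250 and 225 per Mb). In replicate 1, 21 of 178 convergent regions on X were among the strongest (11.8%, exact 95% interval 7.45 to 17.5%) and 18 of 747 on autosomes (2.41%, 1.43 to 3.78%). In replicate 2 the values were 22 of 193 (11.4%, 7.28 to 16.7%) and 23 of 772 (2.98%, 1.90 to 4.44%). X held 53.5% of convergent peaks (exact 95% interval 37.7 to 68.8%) and 17.3% of the convergent bases that met the rule. Because only 43 peaks were convergent, the intervals are wide. With a limit of 250 bp there were still 43 convergent peaks, 23 of them on X. Their share of intergenic peaks was then 5.89%, because 730 peaks met the rule.

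**Figure D3:**
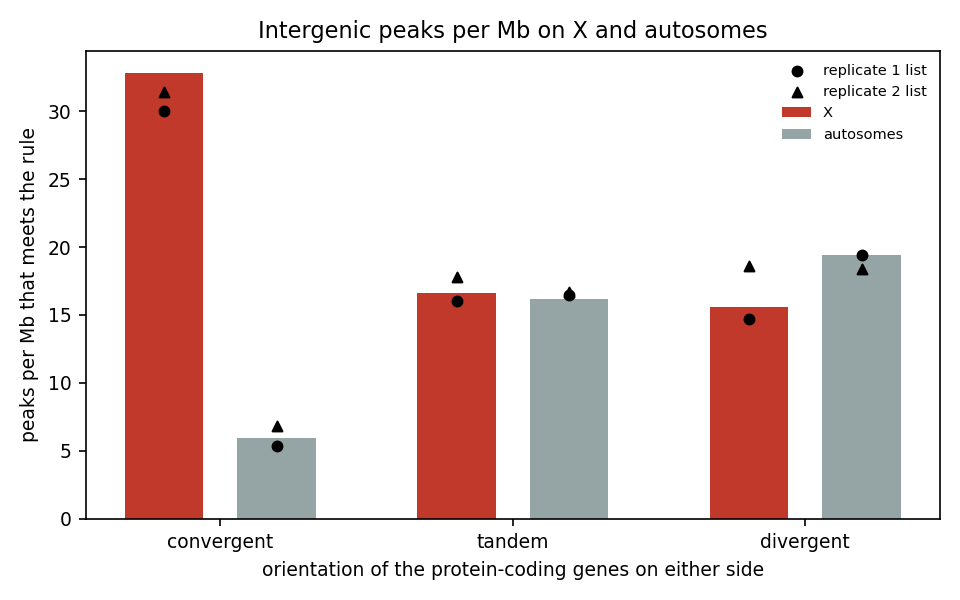
Intergenic peaks per Mb of sequence that meets the location rule (y axis), by orientation of the protein-coding genes on either side and by chromosome; bars are IDR peaks, circles and triangles the 1894 strongest regions of replicates 1 and 2 that meet the rule. Convergent spaces have 32.8 peaks per Mb on X and 5.95 on autosomes, with the markers of both replicates near the bars; tandem and divergent bars are all between 15.6 and 19.4.

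Convergent peaks included many of the stronger ones, with a share that is not separated from those of other spaces. Of the 43, 26 were among the 947 strongest nuclear peaks (60.5%), beside 43.3% in tandem and 39.1% in divergent spaces, with exact 95% intervals that overlap, and their median score was 181 (84.5 in replicate 1 and 99.6 in replicate 2). On X the strongest were those at 11094207 (841), 12363184 (706) and 16682108 (612) named above, followed by 1504968 between F09E10.1 and toca-1 (503, and 222 and 286 in the replicates), 806665 between gtr-1 and F25E2.2 (480, 220 and 263) and 6744040 between mdl-1 and abts-4 (422, with 248 in replicate 2 and no matching region in replicate 1). A weaker one at 1011347 (161, 45.8 and 114) was 154 bp from the 5' end of rncs-1, a non-coding RNA that inhibits Dicer in this worm. Over all orientations X held 117 intergenic peaks (24.5%, exact 95% interval 20.7 to 28.6%), and 22.1% of the bases that met the rule. Among the 6 nuclear chromosomes density was highest on III (23.1 per Mb) and lowest on V (9.82 per Mb), with 17.9 on X.

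Among intergenic peaks, the recruitment motif core GCGCAGGG was found on X alone. It lay within 100 bp of the summit in 11 of 117 intergenic peaks on X (9.40%, exact 95% interval 4.79 to 16.2%). On autosomes it was in 0 of 361, which allows a share of up to 0.831%. Among the strongest regions of each replicate that met the rule the counts were 11 of 111 on X and 0 of 362 on autosomes in replicate 1, and 11 of 127 and 0 of 363 in replicate 2. Windows centred 500 bp from the intergenic summits and free of IDR summits held it in 1 of 937 (0.107%), and weaker regions on X in 1 of 2135 (0.0468%). On X it was in 3 of 53 peaks inside genes (5.66%) and 1 of 171 near 5' ends (0.585%). The core was picked from 9-mers frequent in the 60 strongest members. That choice favours its excess in members over flanks and weaker regions, in the replicates too, so these shares are a description.

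Seen from the sequence, copies of this core on X had a LIR-3 summit nearby more often than copies on autosomes. The nuclear genome has 314 copies of GCGCAGGG, 81 on X and 233 on autosomes. An IDR summit lay within 100 bp of 19 copies on X (23.5%, exact 95% interval 14.8 to 34.2%) and of 5 on autosomes (2.15%, 0.700 to 4.94%). Of the copies at positions that meet the location rule, 13 of 37 on X had one (35.1%, 20.2 to 52.5%) and 0 of 62 on autosomes, which allows up to 4.84%. The base after the core was A at 84.2% of the X copies near a summit and at 29.0% of the other 62 on X, and T at the second position before it was at 78.9% and 37.1%. Since the core was picked from these peaks, the shares of copies with a summit are a description too.

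Because the core was picked from 9-mers frequent in the 60 strongest members, high scores of peaks that hold it were built in by that choice, in the replicates too, and are given only as a description. Their median score was 427 over the 11, beside 138 over the other 467, with 212 beside 65.4 in replicate 1 and 228 beside 81.0 in replicate 2. They ranked 10, 12, 20, 22, 35, 41, 67, 115, 261, 333 and 347 among the 478 intergenic peaks. All windows were fully unique in 31-mers. The peaks at 11094207 and 806665 each have 2 copies. Those at 4209259 and 4208718 lie 541 bp apart in the same space next to hpk-1, with scores of 781 and 109. Of the 11, 4 were in convergent spaces. Others lay between the tandem genes nspc-17 and nspc-18 (607), by ins-39, an insulin-like peptide gene (427), and 1272 bp from cdk-4, a cell cycle kinase gene (332). The core was found in 4 of the 23 convergent peaks on X (17.4%, exact 95% interval 4.95 to 38.8%) and in 7 of the other 94 intergenic peaks on X (7.45%, 3.05 to 14.7%), so most convergent X peaks do not hold these exact letters.

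The GGAGTACAC element was shared with peaks at gene starts. It was in 11 of 478 intergenic peaks (2.30%, exact 95% interval 1.15 to 4.08%), 8 of 294 inside genes (2.72%) and 41 of 1122 near 5' ends (3.65%), and in 6 of 8708 weaker regions (0.0689%). Among the strongest regions of the replicates that met the rule it was in 9 of 473 in replicate 1 and 9 of 490 in replicate 2. This element too was picked from the 60 strongest members, so its scores restate that choice, which also favours its shares in peaks over those in weaker regions. Intergenic peaks with it had a median score of 389, and those without it one of 139, with 159 beside 65.5 in replicate 1 and 224 beside 81.6 in replicate 2. The strongest, at F58D12.3, had 2369, and the weakest, at 4693167 of chromosome V, had 92.2 with 24.4 in replicate 2 and no matching region in replicate 1. Of the 11 peaks 1 was on X, where 17 of the 337 copies of the element at positions that meet the rule lie. No intergenic peak held both cores, but each was in only 11 of 478, too few to tell whether they avoid each other. They were in 7 of the 20 strongest, which again follows from how both were picked.

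Most of the copies of this element carry no peak, and the bases before it differed between copies with and without one. Of 1456 copies in the nuclear genome, 64 had an IDR summit within 100 bp (4.40%). At those 64, the most common base at each of the 7 positions before the core, taken separately, spelled TCCGAGA. Of 167 copies that match at least 6 of these 7, 53 had an IDR summit within 100 bp (31.7%, exact 95% interval 24.8 to 39.4%), and of the 1289 that match fewer, 11 had one (0.853%, 0.427 to 1.52%). At positions that meet the location rule the counts were 11 of 52 (21.2%) and 2 of 285 (0.702%). The 7 letters were read from the peaks themselves, so this comparison is a description. The base most unlike between the copies was A at the third position before the core, at 78.1% of the copies near a summit and 14.6% of the others. Some of the 7 bases were common at both, such as G at the second position before the core, at 96.9% and 81.3%.

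More common than either core near intergenic summits were GA repeats, an octamer and E-boxes. The letters GAGAGAGA, a short GA repeat, were within 100 bp of 94 summits (19.7%, exact 95% interval 16.2 to 23.5%), beside 1.49% of flanking windows (0.819 to 2.49%) and 3.22% of weaker regions. The octamer AGACGCAG had the largest excess over flanks of any 8-mer apart from GA runs. It was in 76 (15.9%, 12.7 to 19.5%), beside 1.28% of flanks and 1.95% of weaker regions. It was picked from these counts. CACGTG, the E-box bound by basic helix-loop-helix proteins, was in 70 (14.6%, 11.6 to 18.1%), beside 4.48% of flanks and 3.26% of weaker regions. At least 1 of these 3 was in 198 intergenic peaks (41.4%), and 261 (54.6%) held none of the 5 elements.

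GA repeats and E-boxes marked peaks away from 5' ends, whether inside or between genes. The GA repeat was in 17.3% of peaks inside genes (exact 95% interval 13.2 to 22.2%) and 6.42% of peaks near 5' ends (5.05 to 8.01%), and the E-box in 18.4% (14.1 to 23.3%) and 6.06% (4.74 to 7.62%). The octamer differed less, at 14.3% and 11.3%. The replicates' strongest regions that met the rule held the GA repeat in 19.5% and 20.8%, the octamer in 16.7% and 15.9%, and the E-box in 13.1% and 14.1%. Peaks with the octamer had a median score of 171 against 135 without it (82.5 against 63.2 in replicate 1, 99.4 against 76.8 in replicate 2). For the GA repeat the medians were 139 and 140, so it did not go with strength. GA repeats were in 0 of the 43 convergent peaks, which allows a share of up to 6.98%. In 93.6% of the peaks that hold a GA repeat all 31-mers were unique.

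**Figure D4:**
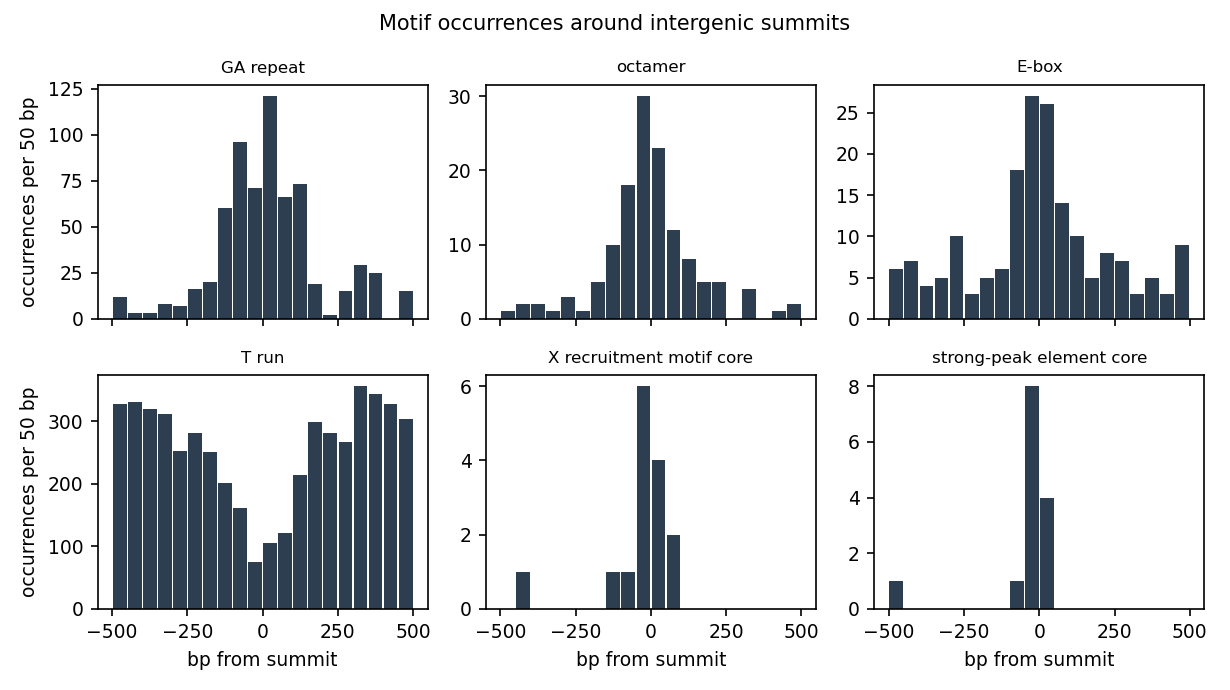
Occurrences of 6 elements in bins of 50 bp (y axis, a separate scale for each panel) by distance from the summit (x axis, bp), summed over both strands and all 478 intergenic peaks; a long GA or T run counts once for every overlapping match. The octamer, E-boxes and both cores are most frequent within 50 bp of the summit, and T runs are least frequent there. GA repeats are frequent over a broader stretch, out to about 150 bp on either side.

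Letters common in AT-rich sequence and at gene ends were less frequent at intergenic summits than around them, and promoter elements of tRNA genes were rare or about as frequent. T runs (TTTTTT) were in 39.1% of windows (exact 95% interval 34.7 to 43.7%) and 69.1% of flanks (66.0 to 72.0%), TATAAA in 13.0% and 25.1%, the splice acceptor letters TTTCAG in 11.5% and 32.4% and the polyadenylation signal AATAAA in 129 of 478 windows (27.0%) and 431 of 937 flanks. Box A, the promoter element inside tRNA genes, searched by its degenerate consensus, was in 11.7% and 12.1%, beside 17.5% of all nuclear IDR peaks, and the box B letters GGTTCGA in 1.67% and 0.747%. The GATA letters TGATAA were in 15.3% and 19.4%, and ATCGAT in 7.32% and 6.19%. The cAMP response element TGACGTCA was in 2.51% and 1.17%, TTCGCGC in 2.51% and 0.961%, CCGCCC in 6.07% and 4.48% and the piRNA upstream letters CTGTTTCA in 1.46% and 1.92%. Of the 14 elements listed in this way, 5 were at least 1.5 times as frequent near summits as in flanks and 4 at least 1.5 times less frequent. The median G+C content of the windows was 42.3%, and 41.8% over all nuclear IDR peaks.

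Most intergenic peaks had no annotated gene start of any kind nearby, which follows largely from the rule, since it excludes the starts of 4 biotypes. In 364 (76.2%, exact 95% interval 72.1 to 79.9%) no 5' end of any biotype lay within 500 bp, beside 78.9% of peaks inside genes. In 114 (23.8%) there was 1 of a biotype that the rule does not use, beside 25.8% of weaker regions. Unclassified non-coding RNA genes made up most of these, with 88 peaks (18.4%), beside 11.0% of weaker regions and 18.2% of all nuclear IDR peaks. piRNA genes, which produce the small RNAs of the germline, were near 19 peaks (3.97%, 2.41 to 6.14%) and 10.8% of weaker regions, and pseudogenes near 7 (1.46%, 0.591 to 2.99%) and 4.17%. Long intergenic non-coding RNA genes were near 5 (1.05%) and microRNA genes near 3 (0.628%), beside 0.597% and 0.482% of weaker regions.

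Peaks beside these RNA genes were of ordinary strength. With any of them within 500 bp the median score was 152, and without them 135, and 47.4% and 42.0% were among the 947 strongest, with intervals that overlap. The strongest beside a non-coding RNA gene was the peak in C08B11.13. The microRNA genes were cel-mir-52 (summit 14033890 of chromosome IV, score 204, 103 and 100 in the replicates), cel-mir-80 (summit 8865651 of chromosome III, 171, 94.4 and 98.6) and cel-mir-53 (summit 11027933 of chromosome IV, 127, 46.6 and 68.8), and all 3 lie in convergent spaces on autosomes. The strongest beside a piRNA gene was at 15570991 of chromosome IV near 21ur-8889 (319, 124 and 210). Beside a long intergenic RNA gene it was at 4769544 of chromosome I near M04F3.7 (404), which had no matching region in either replicate and 31.6% unique 31-mers. The next of these was near linc-91 (383, 154 and 245), with fully unique sequence.

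Genes nearest to intergenic peaks were sorted into lists by gene name, and no difference between lists was tested. Transcription factor genes of the listed families were nearest to 23 of 478 (4.81%, exact 95% interval 3.07 to 7.13%), beside 2.90% of all nuclear IDR peaks and 2.25% of protein-coding genes. Of the 22 genes, 19 were nuclear hormone receptor genes, among them nhr-88, nhr-61, nhr-1 and nhr-10, and the others were hlh-29, fkh-8 and ztf-27. The share of nuclear hormone receptor genes among the 450 genes of this list was not computed, so the 19 show no preference for them. Ribosomal protein and translation factor genes were nearest to 2 (0.418%, rps-28 and eef-1A.2), beside 2.06% of nuclear IDR peaks and 0.571% of protein-coding genes. Chemoreceptor genes were nearest to 1 (0.209%, srw-71), beside 0.686% of nuclear IDR peaks and 6.83% of protein-coding genes. F-box and MATH genes were nearest to 3 (0.628%, beside 0.581% of nuclear IDR peaks and 2.01% of protein-coding genes). Genes of the collagen and cuticle list were nearest to 3 (0.628%, beside 0.634% and 0.971%). Neuropeptide and insulin genes were nearest to 2 (0.418%, beside 0.475% and 0.701%). C-type lectin genes were nearest to 1 (0.209%, beside 0.211% and 1.20%), and chaperone and proteasome genes to 1 (0.209%, beside 1.06% and 0.491%). Histone genes were nearest to 0, which allows a share of up to 0.628%, beside 0.211% and 0.365%. The collagen and cuticle list was made from gene names: of its 3 genes here col-185 is a collagen gene, while dpy-22 encodes a Mediator subunit and dpy-23 a subunit of the AP2 clathrin adaptor. A nearest 5' end does not show which gene, if any, a peak acts on.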

How the data were processed

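ChIP-seq peak lists of 2 biological replicates were analysed. Per the labels of the deposited files, each replicate and the pooled data have a list of peaks and background made as input for IDR, and a list past an IDR threshold came with them. Peak caller, aligner and threshold: not given in the sources used here. The score of each peak is the authors' signal value as deposited, with no unit. The −log10 q-value in the deposited lists reaches its maximum for 1458 nuclear IDR peaks, so peaks were ranked by score. Control data and the lists on an older build were not used here. Read depth is unknown.

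Gene positions are from Ensembl release 115. For each peak the summit was placed by the location rule, and 201 bp around it were searched on both strands for 14 elements, listed with earlier results in view, and 3 chosen after k-mers were seen. Flanks are windows centred 500 bp away. A position was called unique when its 31-mer occurs once in the genome on either strand. Shares have exact Clopper-Pearson 95% intervals; a count of 0 allows 3 counts. With 1 group of 2 replicates and no control group, no test was made: each replicate's value stands beside the pooled one. For a replicate alone, its 1894 strongest nuclear regions were used. The genes named are those at the 20 strongest members, at the strongest member of each other biotype and at the 500 bp limit, and those a motif or orientation result turns on. The members and lists were chosen with earlier results of these data known. The location rule was tested on simulated positions. A region of a replicate matches a peak when it covers its summit. Computing was done in Python 3.11.15 (pandas 2.3.3, scipy 1.17.1, numpy 2.4.6).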

Additional observations from a re-analysis of the deposited data

How the results depend on the processing

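Over 110 alternatives no value could change sign, since each is a count or share. Of these, 66 stayed within the exact 95% interval of the reported share or within 1.5 times the reported count, and 44 did not. Among those 44, 25 were the 50 bp and 200 bp windows for single elements. With 5' ends within 250 bp, 730 peaks met the rule (38.5% of nuclear IDR peaks and 6.84% of pooled regions). Of them 49.0% were among the 947 strongest, and 5.89% lay in convergent and 42.3% in divergent spaces. With 1000 bp, 18.2% of nuclear IDR peaks and 4.75% of pooled regions met it. When any base of the peak counted, 20.9% met it, and with 5' ends of every biotype except piRNA 20%, of which 3.70% had another biotype within 500 bp, by construction only piRNA genes. Among the 947 strongest, 207 met it (21.9%), 2.25% of the pooled regions, with 12.6% in convergent spaces. With a reciprocal overlap of at least 50%, 93.1% and 94.4% were matched in replicates 1 and 2, and within 5 kb 40.4% had another IDR summit. With windows of 200 bp, 1 of the 14 elements was at least 1.5 times less frequent near summits than in flanks. The share of convergent peaks that were on X ranged from 48.9 to 54.1% over its 7 alternatives, and the share of X peaks with the recruitment core from 8.11 to 15.7%, both chosen after seeing the data. The share among the 947 strongest has no value within those 947. Leaving out either replicate was run for the number of peaks, their shares of nuclear IDR peaks, of pooled regions and of the 947 strongest, the other biotypes, the 3 orientations, the convergent share on X and the X core, and kept each share within its interval and the number at 473 to 490. It was not run for matching, neighbours or other element windows. No paired analysis was possible because there is only 1 group. Depth limits are unknown, and small counts, above all the 43 convergent peaks and 11 peaks with a core, give wide intervals.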
